A study of Mus musculus with 17 samples.

Results

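A set of 10 genes of cholesterol and lipoprotein handling was followed through RNA sequencing libraries of cells from mouse lung tumors. They were the apolipoprotein genes Apoe, Apoc1 and Apoc2, the lipase gene Lpl, the receptor genes Lrp1, Msr1 and Cd36, and the efflux genes Nr1h3, Abca1 and Abcg1. They were picked by gene symbol. All 10 had a row in the tables of the macrophages and 9 had one in the table of the tumor cells, where Apoc1 was not listed, out of 17555 gene names over the 3 tables.

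KL mice carried Cre-dependent alleles, Lkb1 fl/fl among them, that form lung tumors once Ad-Cre, an adenovirus that delivers Cre recombinase, is inhaled. KLG4 mice carried the same alleles and Gpx4 m/m, in which rox sites flank exons of Gpx4 and the Dre recombinase that removes them is expressed from a CAG promoter only in cells that Cre has reached, and acts only under tamoxifen. Every group had received Ad-Cre and, per the methods of the study, tamoxifen, and was sampled 10 weeks after Ad-Cre. Tumor cells were sorted as EpCAM-positive and CD31-negative cells, and for CD45, the surface marker of leukocytes, the study describes those it sequenced as negative while its sorting protocol for tumor cells writes positive. Tumor cells and the macrophage populations that the labels call TRMs and MDMs each gave 2 libraries from KL and 2 from KLG4 tumors. A figure legend of the study counts mice for the tumor cells, and no source used here says whether a library came from a single mouse or a pool, so p-values measure only the spread between these libraries. CD8+ T cells and monocytes of the same series were not analysed here.

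Cholesterol leaves a macrophage mainly through ABCA1, which loads lipid-poor apolipoproteins, and ABCG1, which loads larger particles. The nuclear receptor LXR-alpha, the product of Nr1h3, switches on both transporter genes and Apoe when oxysterols accumulate. Lipid enters through LRP1, an endocytic receptor for apoE-bearing particles, through the scavenger receptors MSR1 and CD36, and as fatty acids freed by lipoprotein lipase, the product of Lpl, with apoC-II as its cofactor. In the lung, alveolar macrophages clear surfactant lipid and are known for high Lpl and Abcg1. These genes were measured here in tumor cells that were to lack a lipid peroxidase and in the macrophages beside them.

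Apoe (chr7:19696109-19699188, minus strand), Apoc1 (chr7:19689481-19692660) and Apoc2 (chr7:19671579-19677941) lie in 1 cluster on GRCm38, and all 10 genes are protein coding. Abca1 (chr4:53030787-53159895) and Cd36 (chr5:17781690-17888801) are on the minus strand as well. Promoter windows of RefSeq were found for 6 of the 10 genes. The 250 bases before the start are printed for Abca1, whose KLG4 values exceeded the KL values in every population, for Apoe, the most abundant of the genes in the macrophages, and for Cd36, which went different ways in tumor cells and TRMs. The windows (GRCm38.p6, minus strand, 5′ to 3′) were chr4:53159896-53160145 for Abca1, chr7:19699189-19699438 for Apoe and chr5:17835897-17836146 for Cd36, whose window belongs to a start inside the span of the gene. Capitals mark any match, on either strand, to AGGTCA, the core that nuclear receptors bind, to GGTTANNNNNGGTCA, a looser pair of such cores in the spacing LXR uses, to the E-box CACGTG or to the GC box GGGCGG.
Abca1: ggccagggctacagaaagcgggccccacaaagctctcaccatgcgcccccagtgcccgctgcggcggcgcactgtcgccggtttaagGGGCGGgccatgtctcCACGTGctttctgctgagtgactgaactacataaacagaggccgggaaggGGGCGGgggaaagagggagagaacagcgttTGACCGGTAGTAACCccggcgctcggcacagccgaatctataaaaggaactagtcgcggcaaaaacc
Apoe: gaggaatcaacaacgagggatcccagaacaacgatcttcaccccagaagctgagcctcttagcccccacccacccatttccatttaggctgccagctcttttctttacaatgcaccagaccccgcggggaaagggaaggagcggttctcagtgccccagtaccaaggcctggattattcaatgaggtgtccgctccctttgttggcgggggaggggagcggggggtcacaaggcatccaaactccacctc
Cd36: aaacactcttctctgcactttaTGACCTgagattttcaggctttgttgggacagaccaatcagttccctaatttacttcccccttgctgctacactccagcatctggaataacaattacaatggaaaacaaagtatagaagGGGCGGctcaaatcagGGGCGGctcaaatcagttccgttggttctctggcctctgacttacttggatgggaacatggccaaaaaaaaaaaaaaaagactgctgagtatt

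The paired core was found 67 bases upstream of the Abca1 start. It occurred in 0.0457% of the 32851 promoter windows of this length. Its letters were chosen with the LXR site of Abca1 in mind, so the match is a description. The strict pair, AGGTCA repeated after 4 bases and found in 0.0152% of windows, had no match in the printed windows. The E-box, found in 6.02% of windows, lay 147 bases upstream in Abca1. A single AGGTCA, found in 14.0% of windows, lay 228 bases upstream in Cd36. The GC box, found in 32.7% of windows, was present in Abca1 and Cd36. No match to any of these motifs was in the Apoe window.

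Library depth ranged from 9.14 to 36.6 M of counted reads (M, megareads). In tumor cells the KL libraries were the deeper ones, and in TRMs mitochondrially encoded genes took 9.17% and 13.2% of reads in KL against 1.43% and 2.40% in KLG4. In tumor cells their share was the lower one in KL, at 4.21% to 5.12% against 8.88% to 8.95% in KLG4. Gpx4, the targeted gene, was at 94.95 and 76.8 RPKM (reads per kilobase of gene per megaread counted) in KL tumor cells and at 56.4 and 61.9 in KLG4 tumor cells, a log2 difference of -0.53 ± 0.15 (SE, n = 2 per group, limma, adjusted p = 0.036). In TRMs, where Dre is not meant to act, Gpx4 was at 89.8 and 88.2 RPKM in KL against 53.8 and 56.99 RPKM in KLG4 (log2 -0.68 ± 0.15, SE, limma, adjusted p = 0.070), and in MDMs at 44.9 and 71.3 RPKM against 93.6 and 97.7 RPKM (log2 0.76 ± 0.28, SE, limma, adjusted p = 0.68). The lower level in KLG4 was not seen in tumor cells alone, and exons outside the removed part are counted too. Stk11, the gene of the Lkb1 fl/fl allele that both genotypes carry, was at 25.9 and 25.8 RPKM in KL tumor cells against 61.6 RPKM in both KLG4 libraries (log2 1.25 ± 0.11, SE, limma, adjusted p = 0.00090). It was also higher in both KLG4 libraries of TRMs and of MDMs, by log2 0.88 and 1.49 (limma, adjusted p = 0.059 and 0.68). The female-specific RNA Xist stood at 0.257 and 0.501 RPKM in TRMs of KL mice against 18.3 and 20.2 RPKM in those of KLG4 mice, so sex and genotype cannot be told apart in TRMs. In MDMs only KL replicate 2 was low in Xist, at 0.839 RPKM. Every tumor cell library held both Xist, at 4.17 to 6.18 RPKM, and the Y-linked Eif2s3y, at 7.27 to 9.26 RPKM, whereas in TRMs Eif2s3y was at 12.3 and 14.7 RPKM in KL and listed at 0 in KLG4. RNA of both sexes was thus in each tumor cell library.

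The populations were checked against their markers. TRM libraries had the alveolar macrophage markers Marco (135 to 641 RPKM), Chil3 (2953 to 7512 RPKM) and Siglecf (18.1 to 23.6 RPKM). MDM libraries had Cd68 at 116 to 134 RPKM and Csf1r at 24.3 to 41.2 RPKM, but the monocyte marker Ccr2 stood at only 1.31 to 8.70 RPKM. The largest marker signal in MDMs was that of neutrophils, with S100a9 at 9379 to 21106 RPKM and Csf3r at 208 to 323 RPKM, summing to more than any other of the 14 marker lists, and the MDM label is used here as given. Tumor cell libraries had Epcam at 211 to 638 RPKM and Krt8 at 1287 to 2747 RPKM.

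In tumor cells, 7 of the 9 listed genes were higher in KLG4 and 2 were lower, and every one passed an adjusted p of 0.05 (limma on log2(RPKM + 0.1), Benjamini-Hochberg adjustment over 13770 genes). Apoe rose 12.7-fold, Lrp1 8.54-fold, Abca1 7.59-fold and Abcg1 5.38-fold, while Apoc2 fell 3.38-fold and Cd36 fell 2.28-fold on that scale. Among all genes tested in tumor cells, 40.3% were called, 20.6% as higher and 19.6% as lower. Higher genes made up 51.3% of the calls, but 38.5% under quantile scaling, which moved the median of all genes from -0.09 to -0.25, and 80.0% and 80.5% without KLG4 replicate 1 or 2. Lrp1 and Msr1 reached 1 RPKM only in the KLG4 libraries, and Abca1 and Abcg1 in a single KL library besides, so that their passing the filter already needed the KLG4 values.

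Apoe, the apolipoprotein of remnant particles and of macrophage efflux, was measured in tumor cells at 33.4 and 36.5 RPKM in KL and at 441 and 446 RPKM in KLG4. The groups lay far apart and the replicates of each close together. The log2 difference was 3.66 ± 0.11 (SE, n = 2 per group, adjusted p = 7.8e-05), which was the 96.0 percentile of all genes tested. Apoe stood at ranks 1624 and 1465 by RPKM in the KL libraries and at ranks 113 and 112 in the KLG4 libraries. Apoc2, the lipase cofactor, was at 4.77 and 5.21 RPKM in KL and at 1.81 and 1.08 RPKM in KLG4, a log2 difference of -1.76 ± 0.28 (SE, adjusted p = 0.006). The KLG4 values rest on 26 and 14 reads.

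Lpl, the lipase, was at 1.85 and 2.57 RPKM in KL tumor cells and at 7.60 and 8.28 RPKM in KLG4 tumor cells. Its log2 difference was 1.81 ± 0.21 (SE, adjusted p = 0.0022). Lpl rose in the libraries in which its cofactor gene Apoc2 fell.

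Among the receptors, Lrp1 was at 0.538 and 0.847 RPKM in KL and at 6.65 and 6.43 RPKM in KLG4. Msr1, the class A scavenger receptor of macrophages, was at 0.172 and 0.375 RPKM in KL and at 1.44 and 1.64 RPKM in KLG4. Both were low in KL, and their log2 differences were 3.09 ± 0.25 and 2.19 ± 0.34 (SE, adjusted p = 0.00075 and 0.006). Being low, both depended in size on the pseudocount, and with a pseudocount of 1 the log2 differences were 2.16 and 1.00. Under quantile scaling that of Msr1 was 1.16 (limma, adjusted p = 0.018). Cd36, a receptor for fatty acids and oxidized lipid, was the most abundant of the genes in KL tumor cells, at 55.6 and 78.5 RPKM, and stood at 27.8 and 29.9 RPKM in KLG4. The log2 difference was -1.19 ± 0.19 (SE, adjusted p = 0.0062).

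Nr1h3, which encodes LXR-alpha, was at 2.13 and 1.92 RPKM in KL and at 3.27 and 2.997 RPKM in KLG4 tumor cells. Its difference was the smallest of the 9 and lay just inside the threshold (log2 0.61 ± 0.18, SE, adjusted p = 0.048), and over the alternatives tried its adjusted p ranged from 0.034 to 0.30. Abca1 was at 0.651 and 1.46 RPKM in KL and at 8.45 and 7.80 RPKM in KLG4, a log2 difference of 2.92 ± 0.36 (SE, adjusted p = 0.0028). Abcg1 was at 0.866 and 1.12 RPKM in KL and at 5.74 and 5.75 RPKM in KLG4, a log2 difference of 2.43 ± 0.20 (SE, adjusted p = 0.00083). With a pseudocount of 1 those of Abca1 and Abcg1 were 2.18 and 1.76.

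In each of the 9 genes the KLG4 libraries of tumor cells lay wholly above or wholly below the KL libraries, which also held for 74.7% of all genes tested. The median log2 difference was 2.19 over the 9 genes and -0.09 over all genes. That 2.19 is the value of Msr1, which, like Lrp1, passed the filter through the KLG4 libraries only. With a pseudocount of 1 Msr1 was at 1.00, so the median is a description. Without KLG4 replicate 2 the calls of Apoc2, Msr1, Cd36 and Nr1h3 were lost and 5 remained past the threshold, and without KLG4 replicate 1 those of Cd36 and Nr1h3 were lost, while the calls over all genes went from 5543 to 1927 and 1990.

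**Figure D1:**
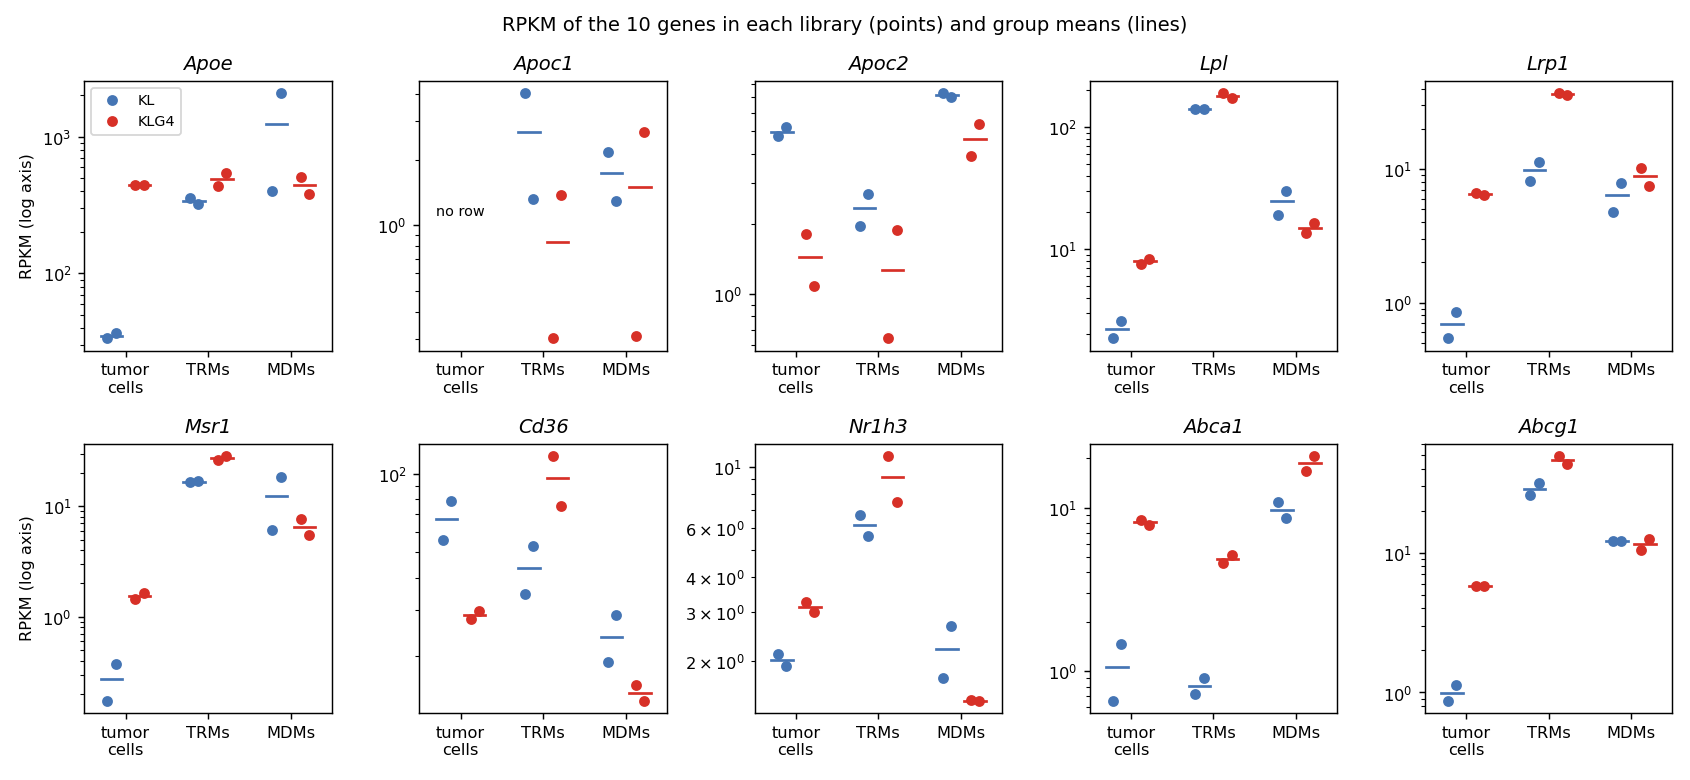
RPKM on a log axis of each of the 10 genes in tumor cells, TRMs and MDMs, with a point per library and a line at the mean of each group (KL blue, KLG4 red). Apoe in KLG4 tumor cells, at 441 and 446 RPKM, sits at the height of the macrophage libraries, and the Apoe value of 2074 RPKM belongs to a single KL MDM library.

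Markers of other cells moved in the same tumor cell libraries. All 7 listed leukocyte markers were called as higher in KLG4, with a summed level of 18.2 and 21.9 RPKM in KL and of 159 and 163 RPKM in KLG4. Ptprc, which encodes CD45, was at 0.834 and 2.06 RPKM in KL and at 26.7 and 27.4 RPKM in KLG4. The 10 listed alveolar macrophage markers summed to 69.0 and 89.9 RPKM in KL and to 426 and 433 RPKM in KLG4, with 7 called as higher. The 9 listed monocyte-derived macrophage markers summed to 19.5 and 26.1 RPKM against 200 and 204 RPKM, and all 7 that were tested were called as higher. Fibroblast markers went from 10.6 and 15.7 RPKM in sum to 369 and 369 RPKM, with all 6 called. Neutrophil markers went from 179 and 272 RPKM to 2258 and 2161 RPKM, and all 6 epithelial markers were called as lower, from 8413 and 6250 RPKM in sum to 3608 and 3626 RPKM. All 8 alveolar type 2 markers were called as lower, from 3623 and 4079 RPKM in sum to 1254 and 1270 RPKM. No macrophage or leukocyte marker was at 0 in any tumor cell library. In bulk libraries, fewer cells of a type and less RNA per cell cannot be told apart. The part of these other cells in the differences of the 9 genes was not tested.

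To set the sizes side by side, the difference of the means in tumor cells, KLG4 minus KL in RPKM, was expressed as a percent of the mean level in KLG4 macrophages. The tables were deposited and scaled separately, so these percentages are a description. For the 33 macrophage and leukocyte markers in all tables, the median was 27.8% of the MDM level and 24.1% of the TRM level. Apoe gained 409 RPKM in tumor cells, which was 91.8% of its MDM level and 83.5% of its TRM level, and 5 and 4 of the 33 markers had a larger percent. Abca1 gained 7.07 RPKM, 37.7% of its MDM level but 145% of its TRM level, a percent that none of the 33 markers exceeded. Its level was 4.87 RPKM in KLG4 TRMs against 18.7 RPKM in KLG4 MDMs. The neutrophil and fibroblast lists are not among the 33. Lpl gained 5.73 RPKM, 38.2% of its MDM level and 3.18% of its TRM level. The gain of Lrp1 came to 66.4% of the MDM level and 16.0% of the TRM level, and that of Msr1 to 19.3% and 4.65%. For Abcg1 the percentages were 41.0% and 10.3%, and for Nr1h3 76.8% and 12.04%. Cd36 and Apoc2 were lower in KLG4 tumor cells and have negative percentages.

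**Figure D2:**
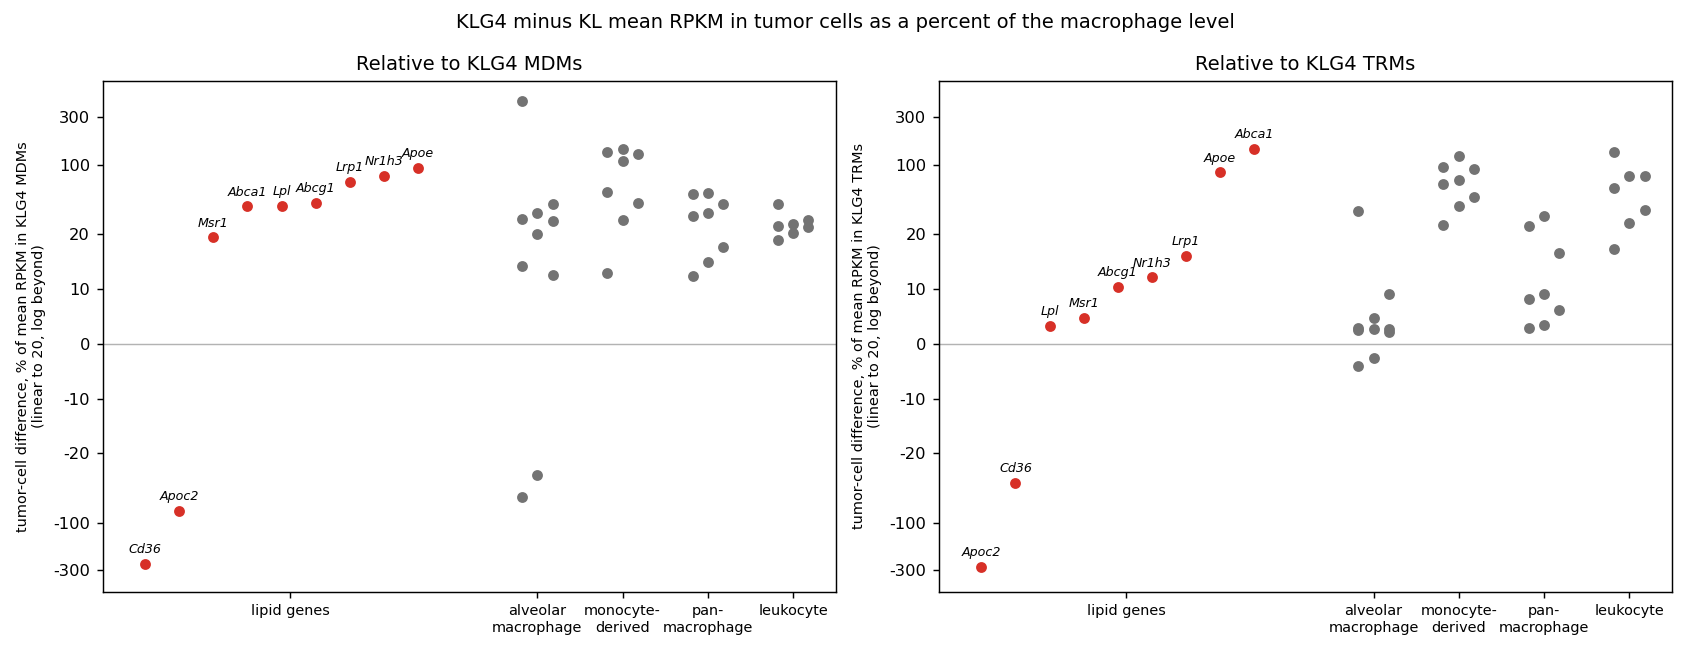
Difference of mean RPKM between KLG4 and KL tumor cells as a percent of the mean RPKM in KLG4 MDMs (left) and KLG4 TRMs (right), on an axis that is linear to 20 and logarithmic beyond, for 9 lipid genes (red) and 33 macrophage and leukocyte markers (grey). Apoe lies high among the markers on both sides at 91.8% and 83.5%, whereas Abca1 passes from 37.7% to 145% and Cd36 lies below 0 on both.

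The gene lists around these genes held calls in both directions in tumor cells, to be read against the 40.3% of all genes that were called. Of other apolipoprotein and lipoprotein assembly genes, 8 were tested, 3 were called as higher and 1 as lower. Apod, an apolipoprotein of the lipocalin family, rose by a log2 difference of 4.82 and Apobr, a receptor for apoB48, by 1.88, while Clu (clusterin, or apolipoprotein J) fell from 5380 and 4529 RPKM to 2526 and 2547 RPKM. Of 19 other lipoprotein and scavenger receptors tested, 7 were called as higher, among them Scara5 (log2 5.33), Olr1 (3.87) and Colec12 (3.71), and 2 as lower, Ager (-2.97) and Lsr (-1.20). This list shares Marco and Cd68 with the macrophage markers and Ager with the alveolar type 1 markers. Of 23 other LXR, efflux and intracellular cholesterol genes tested, 8 were called as higher and 3 as lower. The LXR target Mylip, a ubiquitin ligase for lipoprotein receptors, rose by a log2 difference of 2.46, Pltp, the phospholipid transfer protein and also an LXR target, by 1.97, Ch25h, which makes an oxysterol, by 2.93, and Cyp27a1, which makes another, by 2.74. The genes called as lower were Npc2, which carries cholesterol out of lysosomes, at log2 -1.32, Abca5 at -1.02 and Stard3 at -0.92. Among other LXR targets of the list, Srebf1, Lpcat3 and Arl4c did not pass the threshold, at log2 -0.45, -0.66 and -0.09. Of 19 other lipolysis and fatty acid uptake genes tested, 5 were called as higher, with Lipg, the endothelial lipase, at log2 1.86, and 1 as lower, Angptl4, an inhibitor of lipoprotein lipase, at log2 -0.95. The medians of the 4 lists lay between 0.07 and 0.19, against -0.09 for all genes.

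In TRMs, 8 of the 10 genes had a higher mean in KLG4, but only Abca1 and Lrp1 passed the threshold over 10990 genes tested. Abca1 rose 5.47-fold and Lrp1 3.77-fold. Among all genes in TRMs, 1.80% were called and 1.36% were called as higher. The 198 calls became 12 without a trend, and limma-voom on reads recovered from the RPKM values called 751 of 10660 genes. Without KL replicate 1 or 2 the median log2 difference over all genes was 0.26 or 0.48, against 0.38 with all libraries. The median log2 difference was 0.62 over the 10 genes and 0.38 over all genes, a shift that TMM scaling took away and that the values below include.

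Abca1 was at 0.724 and 0.897 RPKM in KL TRMs and at 4.58 and 5.15 RPKM in KLG4 TRMs. The KL libraries hold 75 and 85 reads of it, and the gene passed the filter through the KLG4 libraries only. Its log2 difference was 2.45 ± 0.32 (SE, n = 2 per group, limma, adjusted p = 0.043), and under TMM scaling it was 2.09 with an adjusted p of 0.071. With a pseudocount of 1 it was 1.697, still past the threshold. Lrp1 was at 8.11 and 11.4 RPKM in KL and at 36.9 and 36.0 RPKM in KLG4, a log2 difference of 1.91 ± 0.22 (SE, adjusted p = 0.035), and under TMM scaling of 1.52 with an adjusted p of 0.053. In both genes the groups were far apart. Under quantile scaling Lrp1 stayed past the threshold (adjusted p = 0.040, limma) and Abca1 did not (0.068). Limma-voom on reads recovered from the RPKM values, with log2 differences of 1.53 for Lrp1 and 2.17 for Abca1, called both (adjusted p = 0.00047 and 0.0039). Over all alternatives the adjusted p of Lrp1 ranged up to 0.088, and that of Abca1 up to 0.13, which it reached without KLG4 replicate 1 or 2.

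The other receptors did not pass the threshold in TRMs. Cd36 was at 34.7 and 52.7 RPKM in KL and at 117 and 75.4 RPKM in KLG4 (log2 1.13 ± 0.29, SE, limma, adjusted p = 0.088), with no overlap of the groups but a wide spread in each. Msr1 was at 16.4 and 16.9 RPKM against 26.0 and 28.5 RPKM (log2 0.71 ± 0.17, SE, limma, adjusted p = 0.082). Abcg1 was at 25.9 and 31.5 RPKM against 49.3 and 42.9 RPKM, with an adjusted p of 0.096 by limma, and Nr1h3 was at 6.68 and 5.65 RPKM against 10.9 and 7.47 RPKM, with an adjusted p of 0.23. Their log2 differences were 0.68 and 0.55, at the 70.8 and 62.4 percentiles of all genes tested, whose median was 0.38.

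Apoe was at 357 and 323 RPKM in KL TRMs and at 437 and 542 RPKM in KLG4 TRMs (log2 0.52 ± 0.17, SE, limma, adjusted p = 0.13). Lpl was at 141 RPKM in both KL libraries and at 189 and 172 RPKM in KLG4, a log2 difference of 0.35 (95% interval -0.01 to 0.72) that became -0.04 under TMM scaling. Apoc1 and Apoc2 had lower means in KLG4, and both rest on few reads. Apoc1 was at 4.03 and 1.32 RPKM against 0.301 and 1.37 RPKM, from 30, 9, 6 and 12 reads. Apoc2 was at 1.97 and 2.69 RPKM against 0.643 and 1.88 RPKM, from 16, 20, 14 and 18 reads. In 9 of the 10 genes the TRM groups did not overlap, Apoc1 being the exception, against 62.7% of all genes tested.

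Of the listed alveolar macrophage markers in TRMs, 4 lay higher in both KLG4 libraries, 4 lay lower and 3 overlapped, with a summed level of 9338 and 9358 RPKM in KL and of 13609 and 12706 RPKM in KLG4. Mertk, an apoptotic cell receptor, was at 28.5 and 38.9 RPKM against 84.3 and 70.0 RPKM. Alveolar type 2 markers summed to 171 and 182 RPKM in KL TRMs and to 35.9 and 69.4 RPKM in KLG4 TRMs. Their part in the differences, and that of sex and of the mitochondrial share, was not tested for the 10 genes, except that without mitochondrial reads Lrp1 stayed past the threshold and Abca1 reached an adjusted p of 0.051.

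Among other lipoprotein and scavenger receptors in TRMs, 3 of 17 tested were called, all as higher, against 1.36% of all genes called as higher, a share that rests on the scaling. Of the calls over all TRM genes, 75.8% of 198 were higher, but 26.7% of 30 under TMM scaling. Marco, a class A scavenger receptor, was at 156 and 135 RPKM in KL and at 396 and 641 RPKM in KLG4. Cxcl16, a chemokine that also binds oxidized LDL, was higher by log2 1.32. No gene was called among 5 other apolipoprotein genes, 21 other LXR and efflux genes and 14 other lipolysis genes by limma, where 11 of these 40 had an unadjusted p under 0.05, as did 28.3% of all genes in TRMs, and limma-voom called 2. The most abundant gene by mean was, in the order of these 3 lists, Apobr at 154 and 230 RPKM in KL and 387 and 350 RPKM in KLG4, Npc2 at 71.0 to 92.0 RPKM and Fabp5 at 377 to 459 RPKM.

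**Figure D3:**
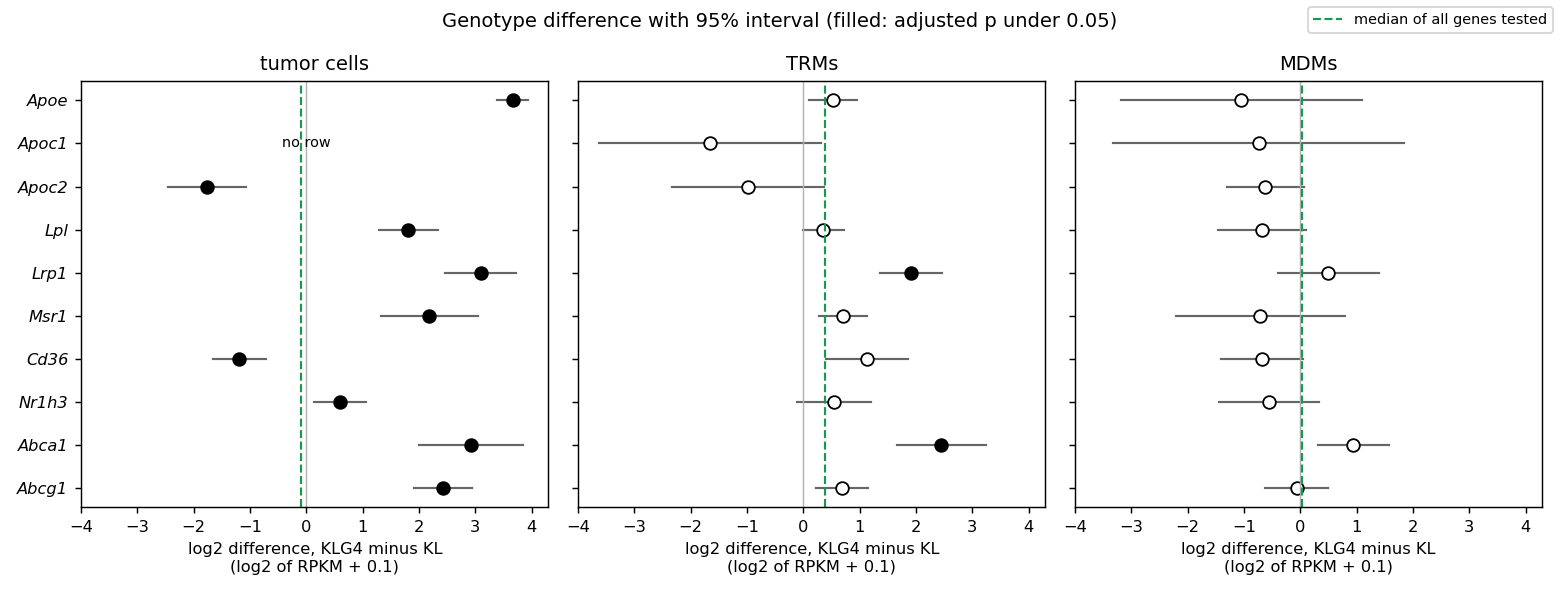
Log2 difference, KLG4 minus KL, of the 10 genes in tumor cells, TRMs and MDMs on the log2(RPKM + 0.1) scale, with 95% intervals from limma, filled points for an adjusted p under 0.05 and a dashed line at the median of all genes tested. In tumor cells 9 points are filled, in TRMs those of Abca1 and Lrp1, and in MDMs none, where Apoe has an interval from -3.18 to 1.09.

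In MDMs, 0 of the 10 genes passed the threshold, and so did 0.00% of 10475 genes tested (limma), the smallest adjusted p being 0.68. At an unadjusted p under 0.05 there were 706 genes, and Abca1 was the only one of the 10 among them. Limma-voom on reads recovered from the RPKM values also called 0 genes. Abca1 was at 10.8 and 8.68 RPKM in KL MDMs and at 16.7 and 20.7 RPKM in KLG4 MDMs (log2 0.94 ± 0.24, SE, limma, adjusted p = 0.68). Lrp1 was at 4.74 and 7.92 RPKM against 10.1 and 7.51 RPKM, with overlapping groups. Abcg1 was at 12.04 and 12.06 RPKM against 10.5 and 12.6 RPKM, a log2 difference of -0.06 with a 95% interval from -0.62 to 0.50.

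Apoe in MDMs turned on a single library. The KL libraries held 398 RPKM in replicate 1 but 2074 RPKM in replicate 2, against 508 and 382 RPKM in KLG4. KL replicate 2 also had the highest C1qa, at 92.7 RPKM against 16.0 to 24.4 RPKM in the other MDM libraries, and the highest Cx3cr1, at 41.97 RPKM against 5.07 to 7.23 RPKM. Its summed neutrophil markers, 10654 RPKM, were the lowest of the 4 libraries, which otherwise had 17782 to 23314 RPKM. Msr1 followed the same library, at 6.16 and 18.4 RPKM in KL and at 7.60 and 5.51 RPKM in KLG4. Without KL replicate 2 the log2 differences of Apoe and Msr1 went from -1.05 and -0.71 to 0.15 and 0.07. With KL replicate 2 as the lone KL library, and assumed to vary like the KLG4 libraries, 5 of the 10 genes and 2682 of all genes were called.

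The remaining genes had lower means in KLG4 MDMs. Lpl was at 19.1 and 30.0 RPKM in KL and at 13.6 and 16.4 RPKM in KLG4, and Cd36 was at 19.0 and 28.7 RPKM against 15.6 and 13.5 RPKM. Nr1h3 was at 1.74 and 2.68 RPKM against 1.45 and 1.44 RPKM. Apoc2 was at 7.29 and 6.99 RPKM against 3.92 and 5.39 RPKM, and Apoc1 lay between 0.309 and 2.69 RPKM in both groups. Summed epithelial, alveolar type 2 and fibroblast markers were also lower in KLG4 MDMs and highest in KL replicate 2, though none was called. Napsa, of the alveolar type 2 list, was higher in both KLG4 libraries. Summed neutrophil markers were lowest in KL replicate 2 and overlapped between the genotypes. The 6 epithelial markers summed to 73.4 and 261 RPKM in KL and to 18.4 and 59.6 RPKM in KLG4, and the 8 alveolar type 2 markers to 159 and 381 RPKM against 41.4 and 74.9 RPKM. The 4 fibroblast markers in the table, too low to be tested, summed to 2.01 and 10.4 RPKM against 1.35 RPKM in both KLG4 libraries. Their part in the differences of the 10 genes was not tested. For 5 of the 10 genes the groups did not overlap, against 44.5% of all genes tested. No gene of the 4 surrounding lists was called, out of 3 to 20 tested in each by limma, where 7 of the 55 had an unadjusted p under 0.05, as did 6.74% of all genes in MDMs, and limma-voom called 0. The most abundant gene of each list by mean was Apobr at 406 to 739 RPKM, Cd68 at 116 to 134 RPKM, Npc2 at 32.6 to 54.8 RPKM and Fabp5 at 187 to 288 RPKM.

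Abca1 was the only gene of the 10 with both KLG4 values above both KL values in all 3 populations, which 7.63% of the 8976 genes tested in all of them did. Apoc2 was the only one that lay below in all 3, as did 2.30% of those genes. In TRMs its nearest values were 1.97 RPKM in KL and 1.88 RPKM in KLG4, from 16 and 18 reads. It passed the threshold in neither TRMs nor MDMs. The 3 comparisons share no library.

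The levels themselves set the populations apart, as a description over tables that were scaled separately. Lpl was highest in TRMs, with means of 180 RPKM in KLG4 and 141 RPKM in KL, then 24.6 RPKM in KL MDMs, 15.0 RPKM in KLG4 MDMs, 7.94 RPKM in KLG4 tumor cells and 2.21 RPKM in KL tumor cells, and no neighbours in this order overlapped. Abcg1 had the same leaders, with 46.1 and 28.7 RPKM in KLG4 and KL TRMs, about 12 RPKM in MDMs of either genotype, 5.74 RPKM in KLG4 tumor cells and 0.994 RPKM in KL tumor cells. The MDM groups were the only neighbours that overlapped. Nr1h3 and Msr1 were also highest in KLG4 TRMs, at means of 9.20 and 27.2 RPKM, and Lrp1 was at 36.5 RPKM there against 9.74 RPKM or less in every other group. Abca1 took another order. It was highest in MDMs, with means of 18.7 RPKM in KLG4 and 9.73 RPKM in KL, and KLG4 tumor cells at 8.12 RPKM stood above KLG4 TRMs at 4.87 RPKM, while KL tumor cells at 1.06 RPKM and KL TRMs at 0.811 RPKM overlapped. Cd36 was highest in KLG4 TRMs (96.1 RPKM) and KL tumor cells (67.0 RPKM), which overlapped. For Apoe the means of KLG4 TRMs (489 RPKM), KLG4 MDMs (445 RPKM) and KLG4 tumor cells (443 RPKM) could not be separated by their spread, and KL tumor cells at 34.9 RPKM were the lowest. The mean of KL MDMs, 1236 RPKM, had an SD of 1185 RPKM.

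The genes whose pattern over the 12 libraries was most like that of Apoe were Aif1 (Pearson r = 0.987), C1qa (0.985), C1qb (0.979), C1qc (0.972) and Cd86 (0.954), among 5366 genes with a mean of at least 5 RPKM. The points share library, depth and population, and no p is given. C1qa was picked from this ranking over the same libraries, so a narrow ratio of the pair follows from the choice and is a description. The ratio of Apoe to C1qa in RPKM was between 15.3 and 25.4 in every library, a span of 1.67-fold, although Apoe itself spanned 62.1-fold and C1qa 70.6-fold. In tumor cells the ratio was 25.4 and 17.9 in KL and 15.3 and 16.0 in KLG4, and in KL replicate 2 of the MDMs, the library with 2074 RPKM of Apoe, it was 22.4. Abca1 was most like Notch2 (0.974), Gfod1, Jmjd1c, Plbd1 and Spty2d1, and its own r with Apoe was 0.603. Cd36 was most like Plaa (0.981), Psmd2, Nom1, Timm44 and Ddx39b, and its r with Abca1 was -0.622.

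**Figure D4:**
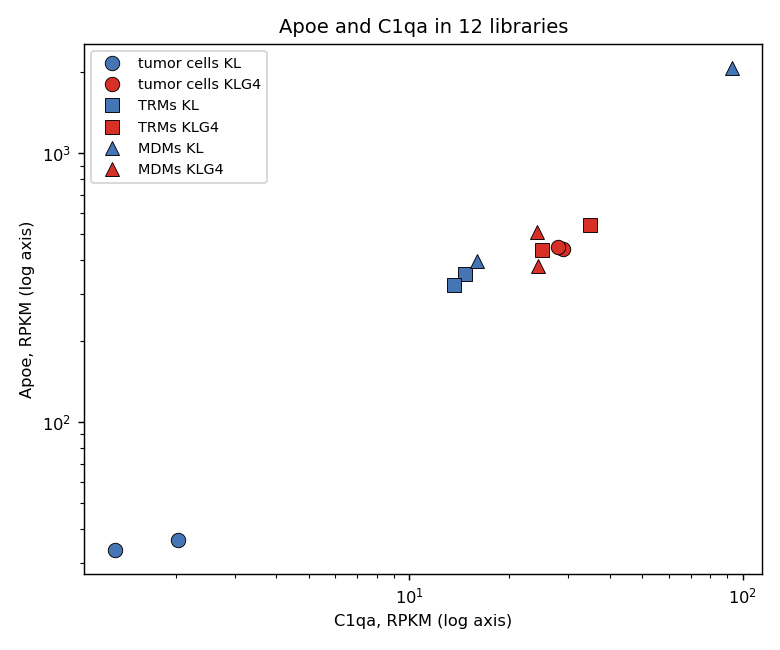
Apoe against C1qa, both in RPKM on log axes, in the 12 libraries, with the shape of a point for the population and its colour for the genotype (KL blue, KLG4 red). The points rise together from KL tumor cells, at 33.4 and 36.5 RPKM of Apoe, to a KL MDM library at 2074 RPKM, and KLG4 tumor cells lie among the macrophages.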

How the data were processed

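Bulk RNA sequencing libraries of 12 samples were used; samples of 2 other cell types were left out. By the labels and the study's methods, reads were trimmed with Trim Galore (0.6.4), aligned with HISAT2 (2.0.5) to the Ensembl mouse genome and counted per gene without strand by featureCounts (2.0.0). The authors deposited RPKM values in a separate table per population, with no factor between libraries. Their fold changes, p-values and test statistics in the same tables were not used. Multiplied by gene length, the RPKM values gave whole reads (within 0.05) for 99.99% to 100% of genes below 2000 reads, which gave the depth. Overlapping genes cannot be separated by such counts.

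Each table was tested alone, with limma (3.58.1, R 4.3.3), trend and two-sided tests on log2(RPKM + 0.1), on genes that reached 1 RPKM in 2 or more of the 4 libraries. This scale understates the change of low genes. P-values were adjusted by Benjamini-Hochberg over the table. The tests were checked on simulated data. All 10 genes are named in all populations. From each of the 4 surrounding lists at most 4 genes were named per population by rule, those called with the largest change or, with none called, the most abundant. Others, such as Lsr, Angptl4 and the LXR targets that were not called, were named after their values were seen. An allele of the genotype and 1 gene that this rule would name are not reported here. Likeness was ranked for Apoe, Abca1 and Cd36. The genes and lists were chosen with earlier results of these data known. Alternatives covered the pseudocount, filter, scaling, trend, replicate block, limma-voom and leaving out each library. Promoter windows came from RefSeq (GRCm38.p6), and gene positions from the deposited tables and GENCODE on GRCm38.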

Additional observations from a re-analysis of the deposited data

Results flagged for a closer look

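Some genes lay on opposite sides of the KL libraries in different populations, with both KLG4 libraries above in one and both below in another. The difference between populations was not tested, since each table was fitted alone. Cd36 had log2 differences, KLG4 minus KL, of -1.19 in tumor cells and -0.68 in MDMs but of 1.13 in TRMs. Lpl had 1.81 in tumor cells and 0.35 in TRMs but -0.68 in MDMs, and its TRM value turned to -0.04 under TMM scaling. Nr1h3 had 0.61 in tumor cells and 0.55 in TRMs but -0.55 in MDMs, and its TRM value was 0.16 under TMM scaling. None of these TRM or MDM values passed the threshold. Without KL replicate 2 the MDM values were -0.39 for Cd36, -0.36 for Lpl and -0.25 for Nr1h3.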

How the results depend on the processing

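With 2 libraries per group, precision is limited by the spread between libraries, and 14 to 26 reads limit Apoc2 in KLG4 tumor cells and 6 to 52 reads limit Apoc1. In tumor cells, 9 genes were called. With a filter at a mean of 5 RPKM only 3 were left to be called, since the others were not tested, and leaving out each library in turn gave 5 to 9. In TRMs, 2 genes were called, of 198 calls over all genes. With the mean filter, which leaves Abca1 untested, 1 was called, of 557 over all genes. Quantile scaling gave 1, of 60 over all genes, and TMM scaling 0, of 30. Without mitochondrial reads 1 was called, of 66 over all genes, and without a trend 0, of 12. The cause was not tested. Leaving out each library gave 1 to 4 in TRMs. TMM scaling moved the median over all TRM genes from 0.38 to 0.00 and the share of higher calls from 75.8% to 26.7%, 48.5% without mitochondrial reads and 38.3% under quantile scaling. In MDMs, 0 genes were called, and 0 to 5 when each library was left out, the 5 only without KL replicate 1. Lpl in TRMs reversed to -0.0396 under TMM scaling and to -0.0369 in limma-voom. With each library left out, log2 differences in MDMs reversed for Apoe (-2.24 to 0.15), Msr1 (-1.49 to 0.0706), Apoc1 (-2.12 to 0.65) and Abcg1 (-0.19 to 0.0674). The labels number the libraries 1 and 2 in each genotype. With the replicate number as a block, 8 genes were called in tumor cells, 2 in TRMs and 0 in MDMs, and all TRM genes went from 198 to 470 calls. The correlation of the deviations of same-numbered libraries was 0.02, -0.06 and 0.05 in tumor cells, TRMs and MDMs. A single value over all genes of a table cannot show whether such libraries shared an origin that acts on some genes.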
